A study of Mus musculus with 8 samples.

Results

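Alarmins are cytokines that epithelial cells hold ready, or make quickly, and release when the tissue is damaged. The genes described here are 9 of the 55276 gene symbols counted in sorted mouse esophageal epithelial cells, chosen by name as epithelial alarmins and their receptors. The ligands were Il1a (IL-1 alpha), Il18, Il33 and Tslp (thymic stromal lymphopoietin), and Il1rn encodes the IL-1 receptor antagonist. Il1r1, its partner chain Il1rap, the decoy receptor Il1r2 and the IL-36 receptor Il1rl2 made up the receptors. All 9 had enough reads to be tested, among 17344 genes that did.

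Interleukin 1 binds IL1R1, which then recruits IL1RAP and signals through MYD88 and IRAK kinases to NF-kB. IL1RN occupies IL1R1 without recruiting the partner chain, and IL1R2 binds interleukin 1 but lacks the intracellular signalling domain. In squamous epithelium IL-1 alpha and IL-33 are kept inside the cell, with IL-33 in the nucleus, whereas IL-18 needs cleavage by caspase 1 to become active. TSLP, which belongs to another cytokine family, acts on dendritic cells and innate lymphoid cells, and the TSLP and IL-33 pathways are known for their part in allergic inflammation of the esophagus.

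The study asked how esophageal basal cells that differ in their content of autophagic vesicles differ in expression. Epithelium was peeled from the esophagus of C57BL6 mice aged 14-15 weeks, and the dissociated cells (dispase, then trypsin) were labelled for integrin-b1, a surface protein of basal cells, with DAPI, which marks dead cells, and with Cyto-ID, a dye taken up by autophagic vesicles. Integrin-b1 positive, DAPI negative cells with low dye signal (Cyto-ID Low) and high dye signal (Cyto-ID High) were sorted and sequenced in bulk. There were 4 libraries in each fraction, from 2 female and 2 male animals named Female1, Female2, Male1 and Male2, each of which gave both fractions. No mouse carried an engineered allele or received a drug, as far as the labels say.

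Libraries held 26285150 to 29301054 counts. The fractions differed across much of the transcriptome: 8440 of the 17344 genes passed an adjusted p of 0.05 in edgeR's quasi-likelihood test, which is 48.7% (23.4% higher in High and 25.3% lower), with a median log2 fold change of −0.09. Although both fractions were sorted as integrin-b1 positive, all 13 basal keratinocyte markers fell in High (median log2 fold change −2.82) and 18 of 19 suprabasal markers rose (median 3.10). In bulk samples a smaller share of cells of a type and less RNA per cell cannot be told apart. High Male2 held fewer fibroblast transcripts than the other High libraries, a summed 44.96 CPM against 209.6 to 647.6. Female2 held gastric transcripts in both fractions, 19.9 CPM in Low and 118.2 in High, where the other libraries held 0.6943 to 1.44. CPM are reads scaled to a common library size, with library sizes corrected by edgeR's trimmed mean method (TMM).

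The sequences just before a transcript start of 4 of these genes are shown because the genes moved in opposite directions: Il1a, Il1rn and Il33 rose in High, and Il1r2 fell. Each is the 250 bases before a RefSeq transcript start in GRCm38.p6, 5′ to 3′ on the gene's strand. The Il1r2 window lies inside the annotated extent of that gene (chr1:40074079-40125231), before a downstream start. It was the only window found for Il1r2, so the sequence upstream of the whole gene is not shown. Capitals mark matches, on either strand, to the AP-1 motif TGANTCA, the Grainyhead-like motif AACCNGTT or the TATA motif TATAAA. The intervals are chr2:129309973-129310222 (minus strand) for Il1a, chr2:24336610-24336859 (plus strand) for the upstream start of Il1rn, chr19:29924863-29925112 (plus strand) for the upstream start of Il33, and chr1:40085843-40086092 (plus strand) for Il1r2.
Il1a: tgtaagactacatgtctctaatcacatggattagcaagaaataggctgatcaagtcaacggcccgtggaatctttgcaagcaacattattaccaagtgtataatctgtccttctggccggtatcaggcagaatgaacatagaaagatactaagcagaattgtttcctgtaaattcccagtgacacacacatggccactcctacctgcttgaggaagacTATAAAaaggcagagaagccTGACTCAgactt
Il1rn: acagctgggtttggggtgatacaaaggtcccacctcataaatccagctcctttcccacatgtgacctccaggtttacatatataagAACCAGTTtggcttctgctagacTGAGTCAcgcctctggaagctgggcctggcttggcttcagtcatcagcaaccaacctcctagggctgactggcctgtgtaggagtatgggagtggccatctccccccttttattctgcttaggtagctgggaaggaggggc
Il33: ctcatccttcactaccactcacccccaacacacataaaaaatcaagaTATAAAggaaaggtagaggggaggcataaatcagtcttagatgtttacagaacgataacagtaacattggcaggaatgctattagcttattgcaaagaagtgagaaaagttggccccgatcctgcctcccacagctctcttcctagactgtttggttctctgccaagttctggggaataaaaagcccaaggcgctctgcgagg
Il1r2: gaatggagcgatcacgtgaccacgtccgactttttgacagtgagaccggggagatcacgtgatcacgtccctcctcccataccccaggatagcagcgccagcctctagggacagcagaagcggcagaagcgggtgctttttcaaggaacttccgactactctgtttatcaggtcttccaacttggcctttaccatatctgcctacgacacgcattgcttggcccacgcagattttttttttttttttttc

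In Il1a the AP-1 match began 12 bases and the TATA match 32 bases before the start. The upstream Il1rn window held an AP-1 match 141 bases and a Grainyhead-like match 164 bases before its start. In the Il33 window shown the TATA match began 203 bases before the start, and in the downstream Il33 window, not shown, 29 bases before. The TATA matches of Il18 and Il1rl2 began 175 and 166 bases before their starts. RefSeq windows were found for 8 of the 9 genes, 12 windows in all, of which 2 held the AP-1 motif, 1 the Grainyhead-like motif and 5 the TATA motif. Among all 32851 windows of the same length these motifs were found in 6.749%, 1.79% and 12.37%. An NF-kB motif, searched on both strands, was in 1 of the 12 windows, at a downstream start of Il1rn, and in 1.412% of all windows. These matches are letters only, and the gene counts do not separate the alternative starts of Il1rn, Il33 or Il1r2.

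Of the 9 genes, Il33, Il18, Il1a, Il1rn and Il1rl2 rose in High, and Il1r2 and Tslp fell. Il1r1 and Il1rap did not pass in the main fit, which has sex but not the animal as a term. That is 7 of 9 called, beside 48.7% of all tested genes, and the median log2 fold change of the 9 was 0.87, beside −0.09 over all tested genes. The 9 genes and the lists below were chosen with earlier results of these data known, so such shares are descriptive. The values of the fractions did not overlap for 6 of the 9, of which 5 were higher and 1 lower in High, beside 48.6% of all tested genes (23.6% higher and 24.9% lower). With the animal as a replicate block all 9 passed, 7 higher and 2 lower, beside 53.8% of tested genes in that fit. Scaling by total counts in place of TMM moved the log2 fold changes of all genes by a median of −0.56, and 6 of the 9 then passed, 4 higher and 2 lower, beside 61.7% of tested genes in that fit, of which 20.5% were higher in High. Without both libraries of Female2, the animal with gastric transcripts, 5 were higher and 2 lower, beside 43.3% of tested genes called in that fit, and without High Male2 alone 6 were higher and 2 lower, beside 44.3%.

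**Figure D1:**
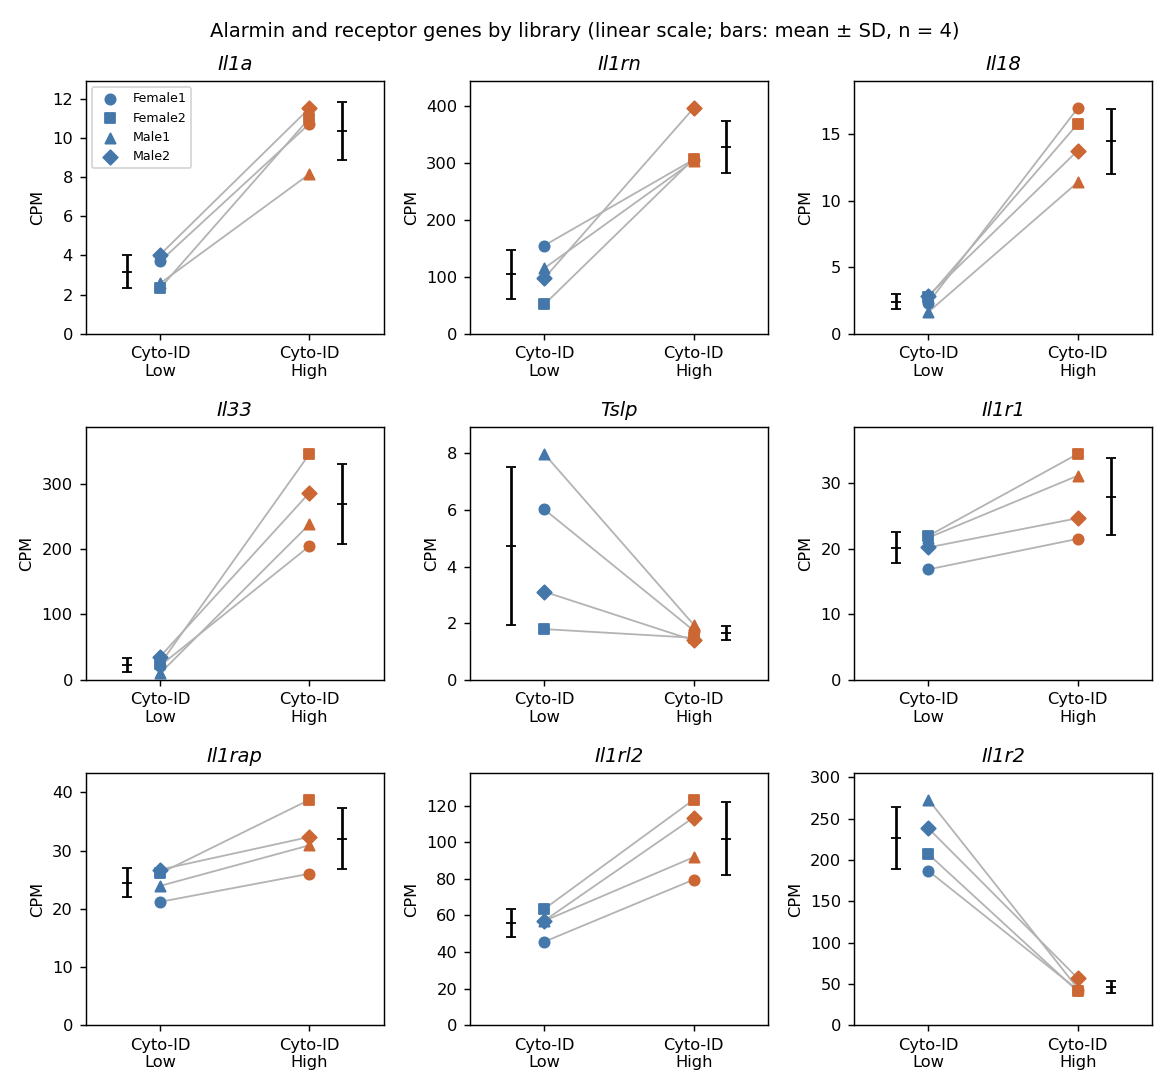
Each panel shows 1 gene in CPM on a linear axis from 0, with a symbol per animal, a grey line joining the Low and High libraries of an animal, and black bars for the mean ± SD (n = 4). Il33, Il18, Il1a and Il1rn were higher in each of the 4 High libraries than in any Low library, Il1r2 was lower in each, and Tslp, Il1r1 and Il1rap overlapped between the fractions.

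Il33, the nuclear cytokine that activates ST2-bearing mast cells and innate lymphoid cells, changed most among the 9 (chr19:29925114-29960718, plus strand). It measured 21.31 CPM in Low Female1, 24.08 in Low Female2, 9.79 in Low Male1 and 35.32 in Low Male2. In High it measured 204.75, 346.01, 238.24 and 286.50 CPM in the same animal order. Every High library was above every Low library, and Low Male1 was the lowest of all. The log2 fold change was 3.57 ± 0.37 (SE, n = 4 per fraction), an 11.88-fold rise with an edgeR adjusted p of 5.186e-05.

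Fibroblasts and endothelial cells are the other known sources of Il33 in many tissues, and as groups their markers were not called higher in High. The summed level of 12 fibroblast markers was 394.9 to 616.0 CPM in Low and 44.96 to 647.6 in High, and that of 12 endothelial markers was 20.56 to 37.59 in Low and 3.55 to 46.38 in High. In High Male2, the library with the lowest sum on both lists and with no count of the endothelial genes Kdr and Prox1, Il33 stood at 286.50 CPM, the second highest of the 8 libraries. Of the fibroblast list 1 gene, Dcn, passed the test in edgeR, and it fell. The part of these cells in the Il33 values was not tested.

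Il18, a cytokine stored as an inactive precursor, was the second of the ligands by fold change (chr9:50554827-50581840, plus strand). Its level was 2.35, 2.78, 1.65 and 2.87 CPM in Low Female1, Female2, Male1 and Male2, and 16.98, 15.80, 11.40 and 13.79 CPM in High. The fractions lay far apart, with the highest Low value well under the lowest High value. Its log2 fold change was 2.58 ± 0.21 (SE), a 5.964-fold rise with an edgeR adjusted p of 1.781e-05. By animal it ranged from 2.24 in Male2 to 2.82 in Female1.

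Il1a, whose product is active without cleavage, measured 3.71, 2.34, 2.58 and 4.04 CPM in Low and 10.73, 11.01, 8.16 and 11.52 CPM in High, in the same animal order (chr2:129299610-129309972, minus strand). The fractions did not overlap, and Male1 had the lowest High value. Its log2 fold change was 1.71 ± 0.23 (SE), a 3.267-fold rise with an edgeR adjusted p of 0.0002364. An exon of Gm14023 overlaps Il1a on the other strand, where 12 to 43 counts per library were assigned.

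Il1rn, the antagonist of the same receptor, measured 154.82 CPM in Low Female1, 51.58 in Low Female2, 115.00 in Low Male1 and 97.50 in Low Male2 (chr2:24336853-24351494, plus strand). In High it was 305.50, 306.66 and 303.29 CPM in Female1, Female2 and Male1, and 395.71 in Male2. The Low libraries varied widely, with Female2 lowest, whereas 3 of the High libraries were nearly equal. The log2 fold change was 1.64 ± 0.30 (SE), a 3.124-fold rise with an edgeR adjusted p of 0.001316. Differences within an animal ran from 0.98 in Female1 to 2.57 in Female2.

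Antagonist and agonist were compared within each library. Per kb of annotated exon, Il1rn exceeded Il1a 14.66-fold in Low Female1, 7.698-fold in Low Female2, 15.54-fold in Low Male1 and 8.475-fold in Low Male2. In High the ratios were 10.09, 9.854, 13.14 and 12.14. The ratio fell in Female1 and Male1 and rose in Female2 and Male2. The mean log2 difference of the ratio was 0.02 ± 0.50 (SD, 4 animals).

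Tslp, the one ligand of the 9 that fell, was a gene of few reads (chromosome 18, exons of 1331 bases). It had 65 to 257 counts in Low and 27 to 51 in High. Its level was 6.02, 1.79, 7.98 and 3.11 CPM in Low Female1, Female2, Male1 and Male2, and 1.74, 1.48, 1.94 and 1.39 CPM in High. Low spread widely, and Low Female2 lay within the High range, although each animal's High library was below its own Low library. The log2 fold change was −1.50 ± 0.43 (SE), a 2.828-fold fall with an edgeR adjusted p of 0.01601. The call rested on 2 Low libraries: the adjusted p was 0.08403 without Low Female1 (log2 fold change −1.16) and 0.06573 without Low Male1 (−1.11).

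The receptor genes moved differently from each other. Il1r2, the decoy, fell in every animal (chr1:40074079-40125231, plus strand). It measured 186.85, 207.08, 273.00 and 238.29 CPM in Low, and 43.03, 41.10, 44.73 and 57.05 CPM in High. The highest High library, Male2, lay far below the lowest Low library, Female1. In log2 the fold change was −2.28 ± 0.15 (SE), a 4.851-fold fall with an edgeR adjusted p of 1.268e-05.

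Il1r1, the signalling receptor, measured 16.86, 21.99, 21.71 and 20.22 CPM in Low Female1, Female2, Male1 and Male2, and 21.53, 34.52, 31.19 and 24.69 CPM in High (chr1:40225080-40317257, plus strand). The ranges overlapped, although High was above Low within each of the 4 animals. The log2 difference was 0.47 ± 0.18 (SE) with an edgeR adjusted p of 0.05317, which missed the threshold. A fit with a replicate block for the animal gave 0.45 ± 0.11 with an adjusted p of 0.009754, and under total-count scaling it was −0.09 with an adjusted p of 0.6945. Leaving out High Female1 gave 0.59 (adjusted p 0.02114) and leaving out High Male2 gave 0.55 (adjusted p 0.04336).

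Il1rap, the partner chain shared by the receptors for IL-1, IL-33 and IL-36, measured 21.22, 26.12, 23.95 and 26.74 CPM in Low and 26.05, 38.75, 30.92 and 32.36 CPM in High (chr16:26581704-26730117, plus strand). As for Il1r1, each animal's High library was above its Low library while the ranges overlapped. The log2 difference was 0.39 ± 0.16 (SE) with an edgeR adjusted p of 0.06648. With the replicate block it was 0.38 ± 0.11 with an adjusted p of 0.01773, and under total-count scaling −0.19 with an adjusted p of 0.282. Without High Female1 it was 0.48 with an adjusted p of 0.02909.

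Il1rl2, through which the IL-36 cytokines signal, measured 45.68, 63.59, 57.07 and 57.17 CPM in Low and 79.57, 123.20, 91.82 and 113.49 CPM in High (chr1:40324610-40367562, plus strand). The fractions did not overlap, and Female1 was the lowest animal in both. The log2 fold change was 0.87 ± 0.18 (SE), a 1.826-fold rise with an edgeR adjusted p of 0.002722. Under total-count scaling the difference was 0.28 with an adjusted p of 0.1215.

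The ratio of decoy to signalling receptor was lower in High in every animal. Per kb of exon, Il1r2 exceeded Il1r1 36.83-fold, 31.33-fold, 41.82-fold and 39.19-fold in Low Female1, Female2, Male1 and Male2. In High it exceeded Il1r1 6.652-fold, 3.968-fold, 4.779-fold and 7.687-fold. The mean log2 difference was −2.73 ± 0.38 (SD, 4 animals), or a 6.645-fold lower ratio. This ratio is taken within a library and does not depend on how libraries were scaled against each other.

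**Figure D2:**
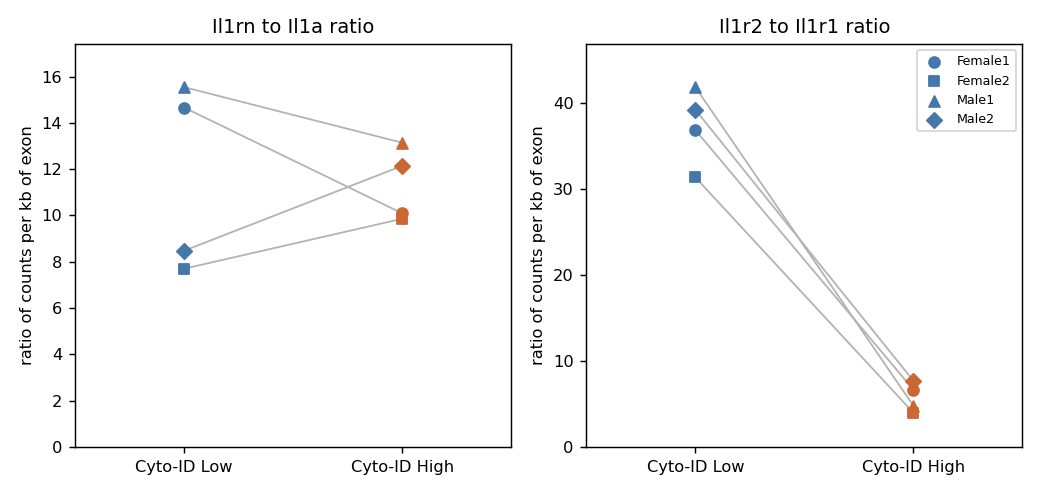
Ratios of counts per kb of exon within each library, on linear axes from 0, with a symbol per animal and a grey line joining its Low and High libraries. The Il1rn to Il1a ratio moved up in 2 animals and down in 2, while the Il1r2 to Il1r1 ratio fell from between 31.33 and 41.82 to between 3.968 and 7.687.

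The order of levels also changed. Per kb of exon, the Low fraction was led by Il1r2 at 118.6 ± 19.7 CPM per kb (SD, n = 4), followed by Il1rn at 18.92 ± 7.73, whose lowest library (9.318, Female2) lay under the highest of Il1rl2 (9.335) and of Il33 (12.24). Il1rl2 (8.203 ± 1.094) and Il33 (7.839 ± 3.633) came next and did not differ beyond their spread. Tslp, Il1r1, Il18, Il1rap and Il1a lay between 3.55 and 1.604 CPM per kb, with neighbours in that order overlapping. The High fraction was led by Il33 at 93.17 ± 21.28 CPM per kb, above Il1rn at 59.22 ± 8.185, with the lowest Il33 library (70.95) just under the highest Il1rn library (71.49). Il1r2 followed at 24.36 ± 3.776. Il1rl2 (14.98 ± 2.922) and Il18 (14.06 ± 2.373) were level within their spread, then Il1a (5.246 ± 0.760) and Il1r1 (4.398 ± 0.932) overlapped, and Il1rap (2.819 ± 0.461) and Tslp (1.23 ± 0.189) were lowest. These levels divide by the summed length of all annotated exons of a gene, which may exceed the transcript in use.

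The genes of the receptor cluster on chromosome 1 lie on the plus strand in the order Il1r2, Il1r1, Il1rl2, Il1rl1, Il18r1 and Il18rap within 477.6 kb. Il1r2, at its upstream end, fell, and Il1rl2, farther along, rose, with the uncalled Il1r1 between them. Il1r2 and Il1r1 are 99.8 kb apart and Il1r1 and Il1rl2 7.4 kb apart. Il1rl1 (the IL-33 receptor ST2), Il18r1 and Il18rap, beyond Il1rl2, did not pass the test.

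**Figure D3:**
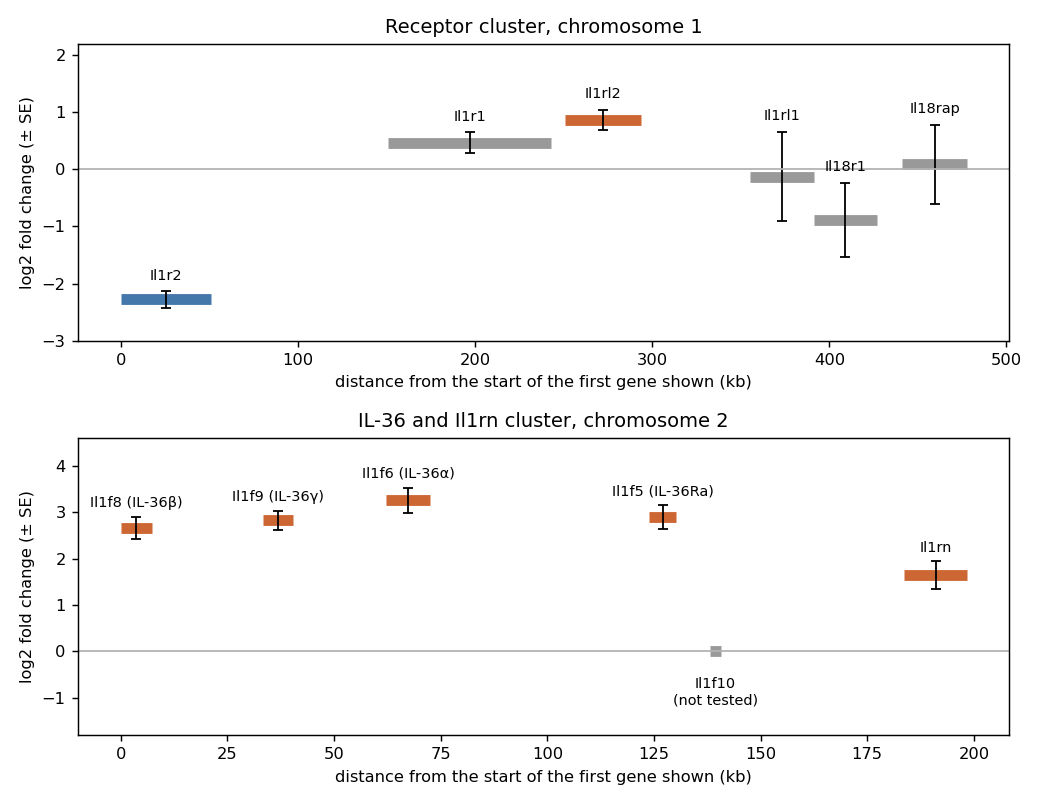
Log2 fold change (High minus Low, ± SE) of each gene drawn at its extent along the chromosome, as distance in kb from the start of the first gene shown, in orange where higher, blue where lower and grey where not called. Il1r2 at −2.28 and Il1rl2 at 0.87 lie in 1 cluster of 477.6 kb, and on chromosome 2 the 4 IL-36 genes and Il1rn were higher, with Il1f10 not tested.

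Other ligands of the family were examined from a list of 8, of which 6 were tested, 4 rose and 1 fell, 83.33% called beside 48.7% of all tested genes (23.4% higher and 25.3% lower). The 4 that rose were the IL-36 genes, which lie beside Il1rn on chromosome 2 within 198.3 kb and whose products act on keratinocytes through IL1RL2. Il1f6 (IL-36 alpha) rose from 6.452 ± 2.37 to 62.43 ± 14.6 CPM (SD, n = 4), for which edgeR gave 3.26 ± 0.28 on the log2 scale (SE, adjusted p 2.006e-05). Il1f9 (IL-36 gamma), the most abundant of them, rose from 29.17 ± 7.13 to 206.5 ± 22.2 CPM, or by 2.82 ± 0.20 in log2. Il1f8 (IL-36 beta) rose by 2.66 ± 0.25, and Il1f5, the IL-36 receptor antagonist, rose by 2.90 ± 0.26 from 6.207 to 46.08 CPM. The agonists and the antagonist of the IL-36 receptor were both higher in High. The median of the 6 was 2.74, beside −0.09 over all tested genes.

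Il1b, which lies 54.6 kb from Il1a, did not follow it. Il1b measured 12.42, 8.47, 8.11 and 8.42 CPM in Low and 14.90, 5.35, 10.94 and 0.15 CPM in High, the last being 3 counts in Male2. The log2 difference was −0.29 ± 0.72 (SE) with an edgeR adjusted p of 0.7785. The summed level of 24 leukocyte markers, a cell class known to make IL-1 beta, was 159.4, 65.35, 118.2 and 35.86 CPM in High Female1, Female2, Male1 and Male2, the same order as Il1b. In Low it was 134.7, 83.99, 93.47 and 107.9 CPM, where the order differed: Female2 had the lowest sum and the second highest Il1b. The Il1b values of Low Female2, Male1 and Male2 lay close together, at 8.11 to 8.47 CPM. Among the leukocyte markers, Cd74 had 650 counts in Low Female2 beside 898 to 1335 in the other Low libraries. Lyz2 had 679 counts there beside 471 to 730. Both were picked after their values were seen. Of that list 16 were tested, 2 rose, Cd68 among them, and 1, Cd207 (langerin, of Langerhans cells), fell, Ncr1 was at 0 in at least 1 Low library, and Cd3e, Cd3g, Cd4, Cd8a, Cd79a, Kit and Ncr1 were at 0 in at least 1 High library. Il1rn was 395.71 CPM in High Male2, the library with the lowest leukocyte sum. The part of leukocytes in the Il1b and Il1rn values was not tested.

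**Figure D4:**
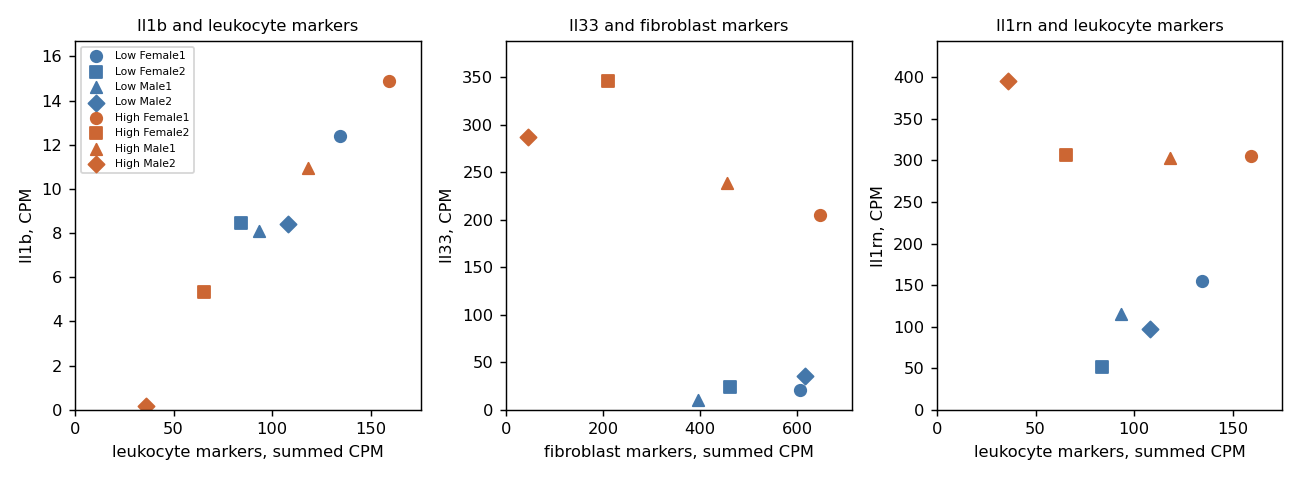
Level of 1 gene (CPM, vertical) against the summed CPM of markers of another cell type (horizontal) in each library, on linear axes from 0, in blue for Low and orange for High with a symbol per animal. Il1b was lowest (0.15 CPM) where the leukocyte sum was lowest (35.86 CPM), whereas Il33 was 286.50 CPM and Il1rn 395.71 CPM in that same High Male2 library.

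Hmgb1, a chromatin protein that acts as an alarmin once released, went from 92.31 ± 8.34 CPM in Low down to 32.43 ± 4.77 in High, for which edgeR gave −1.51 ± 0.15 on the log2 scale (SE, adjusted p 3.526e-05). Its annotated exons overlap Mm2pr on the same strand and Uspl1 on the other. Il1f10 and Il25 had too few reads to be tested.

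Of 9 other receptors and soluble binding proteins, 0 rose and 1 fell in edgeR, which is 11.11% called beside 48.7% of all tested genes, and the median was −0.12. At an unadjusted p under 0.05 the higher count was likewise 0, as it was with DESeq2. The one that fell was Crlf2, the TSLP-specific receptor chain, from 4.638 ± 0.925 to 2.801 ± 0.540 CPM (log2 fold change −0.73 ± 0.22, SE, edgeR adjusted p 0.0187). Its adjusted p was 0.0543 without High Female2, 0.06596 without Low Female1, 0.06311 without Low Male1 and 0.05047 without Low Male2. Its partner Il7r and the receptor chains Il1rl1, Il18r1 and Il18rap had 0 counts in High Male2 and low counts elsewhere. Il1rl1, for instance, had 85, 74, 44 and 47 counts in Low and 94, 16, 64 and 0 in High, where a count of 0 still allows up to 3 counts. High Male2 was also the library with the lowest leukocyte sum, and the part of leukocytes in these receptor values was not tested. Il18bp (log2 difference −0.04), the inhibitory receptor Sigirr (0.30) and the IL-17 receptor chains Il17ra (−0.08) and Il17rb (−0.38) also missed the threshold.

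**Figure D5:**
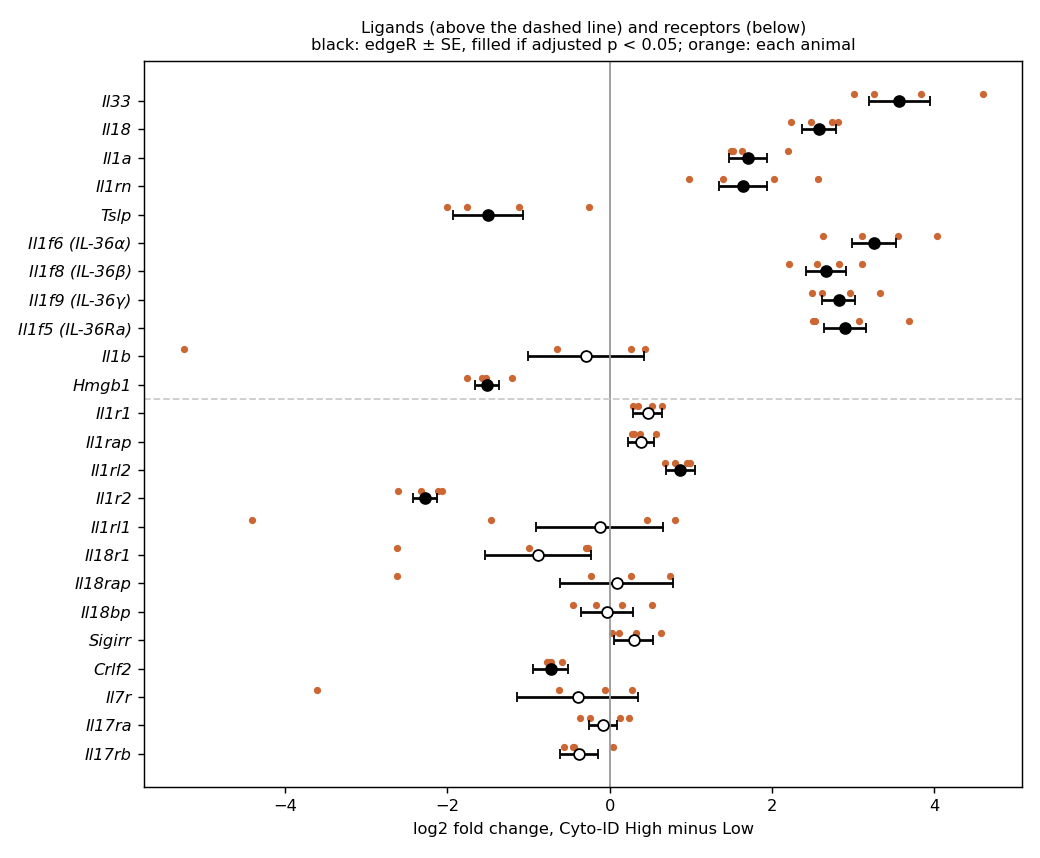
Log2 fold change (High minus Low) of the ligands, above the dashed line, and the receptors, below it, with edgeR estimates ± SE in black (filled where the adjusted p was under 0.05) and each animal's own difference in orange. The ligands range from −1.51 for Hmgb1 to 3.57 for Il33, and among receptors Il1rl2 lies above and Il1r2 and Crlf2 below the line of no change.

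Genes for the processing and release of these cytokines came next. Of 24 listed, 18 were tested, 8 rose and 4 fell, 66.67% called beside 48.7% of all tested genes (23.4% higher and 25.3% lower), with a median of 0.15. Under total-count scaling 7 rose and 5 fell, beside the 61.7% of all tested genes called in that fit. Among genes called at a mean of 1 CPM or more, the largest rises were in gasdermins, which form pores in the membrane. Gsdma rose from 22.56 to 364.7 CPM (log2 fold change 4.02 ± 0.53, SE, edgeR adjusted p 0.0001938) and Gsdmc from 24.59 to 195.2 CPM (2.99 ± 0.34). Both have near-identical copies in the mouse genome, so reads may be split among them. Nlrp10 rose by 2.41 and Serpinb1a, an inhibitor of neutrophil proteases, by 2.29. Pycard (the inflammasome adaptor ASC) rose by 1.97, Capn1, a calpain subunit and member of the protease family that cleaves the IL-1 alpha precursor, rose by 1.73 from 213.6 to 713.0 CPM, and Casp1, which cleaves IL-18, rose by 0.61 ± 0.17 from 34.08 to 52.49 CPM. These last 3 were chosen after their values were seen, and Casp1 stood at 0.04 under total-count scaling (adjusted p 0.8445).

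Ninj1, which ruptures the membrane of dying cells, fell by 0.82 on the log2 scale, and Capns1, the small calpain subunit, fell by 0.61. Gsdme fell by 1.25 and Casp4 by 0.88, and both calls were weak. The adjusted p of Gsdme was 0.05118, 0.05059, 0.06705 and 0.05248 without Low Female1, Low Female2, Low Male1 and Low Male2. That of Casp4 rose to between 0.05891 and 0.1495 when Low Female1, Low Male1 or any one of the 4 High libraries was left out.

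Of 33 genes acting downstream of the receptors, 10 rose and 3 fell, 39.39% called beside 48.7% of all tested genes, with a median of 0.31. Under total-count scaling 5 rose and 13 fell, in a fit that called 61.7% of all tested genes, 20.5% of them higher. With DESeq2 14 rose and 3 fell, in a fit that called 49.6%, and with the replicate block 12 rose and 3 fell, in a fit that called 53.8%. Tollip, an inhibitor of receptor signalling, rose from 165.2 ± 43.7 to 437.2 ± 80.3 CPM (log2 fold change 1.40 ± 0.22, SE, edgeR adjusted p 0.0006028). The kinase Irak4 and its inhibitory relative Irak3 rose by 1.26 each, and the ubiquitin ligase Peli1 by 1.21, and Irak3 had an adjusted p of 0.08868 under total-count scaling. The other Pellino genes went the other way: Peli2 fell from 30.75 ± 4.43 to 4.609 ± 1.03 CPM (log2 fold change −2.73 ± 0.19) and Peli3 fell by 1.43. Tab1, an adaptor of the kinase TAK1, fell by 0.67 and passed in 18 of 21 alternative analyses, with adjusted p up to 0.07509. Without High Female2 its adjusted p was 0.05346, and without both libraries of Female2 it was 0.05221 (log2 difference −0.44). Exons of Irak4, Irak3 and Peli2 overlap other annotated genes.

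Genes known to be induced by interleukin 1 in epithelium moved in both directions. Of 28 listed, 24 were tested, 8 rose and 5 fell, 54.17% beside 48.7%, with a median of −0.08. Under total-count scaling 5 rose and 6 fell, beside the same 61.7%. Defb4, an antimicrobial peptide, rose from 14.79 ± 13.1 to 268.4 ± 81.9 CPM (log2 fold change 4.18 ± 0.74, SE, edgeR adjusted p 0.001211), and the chemokine Ccl20 rose from 1.155 ± 0.576 to 12.95 ± 2.91 CPM (3.52 ± 0.31). Tnfaip2 and the NF-kB cofactor Bcl3 rose by 2.24 and 1.84. The adhesion molecule Icam1 fell from 192.1 ± 34.0 to 18.04 ± 11.5 CPM (−3.44 ± 0.35, adjusted p 4.157e-05), and the prostaglandin synthase Ptgs2 fell from 199.8 ± 85.9 to 21.08 ± 5.28 CPM (−3.25 ± 0.34, adjusted p 5.63e-05). Csf1 fell by 0.88 and passed in 19 of 21 alternative analyses, with −0.79 and an adjusted p of 0.06007 without both libraries of Female2. Cxcl1 fell by 1.14 with an adjusted p of 0.04889, which passed the threshold in 8 of 21 alternative analyses and was lost without any one library other than High Female1, with adjusted p up to 0.1914 (without Low Male2). Dissociation stress genes summed to 17980 to 22630 CPM in Low and 12680 to 28170 CPM in High, with Ier2 and Btg2 higher and Jun and Atf3 lower. Their part in these changes was not tested.

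The genes whose levels followed each of the 9 most closely were taken from 10007 tested genes with a mean of at least 5 CPM, by Pearson's r of log2 CPM over the 8 libraries. These values are descriptive, since all 8 libraries share the contrast between the fractions. Il33 was closest to Gdpd1 (r = 0.999), Fyn (0.9988) and Gsdmc (0.9986). Il18 was closest to S100a7a (0.9979), Mrpl34 (0.9961) and the IL-36 gene Il1f6 (0.9954). Il1a was closest to Areg, which encodes the growth factor amphiregulin (0.9921), and then to Vasn and Prdm1. Riok3 (0.9928) and Tgoln1 (0.9919) were among the closest to Il1rn. Il1r2 was closest to Serpinb10 (0.9964), Oat (0.9962) and Large2 (0.9961), which fell with it. The nearest genes were Stx17 (0.9966), a syntaxin of the autophagosome, for Il1rl2, Clec2f (0.9874) for Tslp, Pex13 (0.9836) for Il1r1 and Kdm4c (0.994) for Il1rap.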

How the data were processed

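The deposited table holds raw read counts by gene symbol in 8 libraries, judged from its whole-number values and unequal column totals (26285150 to 29301054). The submitters' processing notes name STAR 2.7.3, DESeq2 and the build GRCm38; the counting tool, the strand setting and the annotation are not given in the sources used here, so reads of overlapping or near-identical genes may have been split or dropped. Each column was tied to a sample through the animal and fraction in its name.

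The fit used edgeR 4.0.16 (R 4.3.3) on the 17344 genes that filterByExpr left, scaled by TMM. High was tested against Low with quasi-likelihood (glmQLFit, glmQLFTest) in a model of all 8 libraries with sex as a term, with Benjamini-Hochberg adjustment over all tested genes and a threshold of 0.05. Standard errors were derived from the F statistic. Log2 CPM use a prior count of 2, and ratios add a pseudocount of 2. The procedure was tested on simulated data. Spreads and p-values cover differences between these animals.

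Same-named libraries come from 1 animal. Deviations from the fraction means correlated across genes at 0.43 (Female1), 0.32 (Female2), −0.02 (Male1) and 0.28 (Male2), and at −0.37 to 0.35 between animals, so the pairing rests on the names. A block by animal and DESeq2 1.42.0, limma-voom (limma 3.58.1), other scalings and filters, and left-out libraries or animals were the 21 alternatives.

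The members and lists were chosen with earlier results of these data known. All 9 members and all genes of the ligand and receptor lists are named. From other lists all called genes are named where 8 or fewer, otherwise the 4 that rose most and the 4 that fell most of those called at a mean of 1 CPM or more. The IL-36 genes were found under older symbols for 4 listed names. Positions are from GENCODE M21 on GRCm38, where 53388 of the symbols were found, and promoter windows are from RefSeq on GRCm38.p6. A few genes that the rule or a list includes are not reported here.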

Additional observations from a re-analysis of the deposited data

Results flagged for a closer look

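Within each fraction, 114 groups of 4 libraries (a gene, a ratio or a marker list in 1 fraction) were examined for 1 library far from the other 3 (Dixon's test), which chance gives in about 1 group in 20, and 8 stood out. Il1rn was 395.7 CPM in High Male2, where the other High libraries were 303.3 to 306.7. In the same library Tollip was 556.6 CPM beside 384.7 to 410.6, and Bcl3 144.0 CPM beside 66.45 to 71.84. Low Female1 stood above the other Low libraries in Il1b (12.42 CPM beside 8.108 to 8.468), Il18r1 (0.525 CPM beside 0.3299 to 0.3622) and the summed muscle markers (76.69 CPM beside 50.06 to 53.84). The summed gastric markers stood out in Female2, at 19.9 CPM in Low (others 0.6943 to 1.421) and 118.2 CPM in High (others 1.258 to 1.44). Of 99 genes compared by sex (the 9 genes and all tested genes of the pathway lists), 1 moved one way between the fractions in both females and the other way in both males. Gsdmc2 differed between High and Low by 0.256 and 0.3474 in log2 CPM in Female1 and Female2 and by −0.0523 and −1.6968 in Male1 and Male2, a mean difference of −1.1763 for males minus females. The difference was not tested, and Gsdmc2 has near-identical copies.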

How the results depend on the processing

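Il33, Il18, Il1a, Il1rn and Il1r2 kept their direction and passed the threshold in all 21 alternatives, with log2 fold changes of 2.99 to 4.03, 2.01 to 2.79, 1.14 to 1.90, 1.08 to 2.01 and −2.85 to −2.17. Tslp stayed lower in all 21 and passed in 16, and Il1rl2 stayed higher and passed in 20. Scaling by total counts turned the uncalled differences of Il1r1 (−0.0936) and Il1rap (−0.1889) to the lower side, and gave 3 called genes among the other receptors in place of 1; that count ran from 0 to 1 with single libraries left out, and was 0 without both libraries of Male1 and 0 without both of Male2. With the animal as a replicate block 9336 genes were called in place of 8440, of which 8393 were shared, and among the 9 genes the block changed the calls of Il1r1 (0.4546, adjusted p 0.009754) and Il1rap (0.3776, adjusted p 0.01773) only. Il1r1 also passed with DESeq2 (adjusted p 0.01904) and Il1rap too (0.02826), whereas Tslp did not with limma-voom (0.05878) or without both libraries of Female1 (0.06925) or of Male1 (−1.24, 0.06766). Genes called ran from 6563 to 10708, and 6 to 9 of the 9 genes passed. The cause of these shifts was not tested.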

Other observations

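Among the Low libraries Female2, the animal with gastric transcripts in both fractions, held the lowest values of several genes of these pathways, picked out after their values were seen. Rela, the NF-kB subunit p65, was 108.93 CPM there beside 255.82 to 336.52 in the other Low libraries, and Nfkb2 was 37.53 CPM beside 80.33 to 97.92. Casp4 was 11.38 CPM beside 24.36 to 40.20. Il1rn (51.58 CPM) and Tslp (1.79 CPM) were lowest in the same library, while Il33 (24.08 CPM) and Il18 (2.78 CPM) lay within the range of the other Low libraries.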
